A study of Mus musculus with 6 samples.

Results

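A set of 10 genes that encode assembly factors of deuterosomes and procentrioles were followed in multiciliated ependymal cells grown from Edf1 knockout (KO) mice. They were taken by gene symbol: Deup1, Ccdc78, Plk4, Stil, Sass6, Cep152, Cep63, Cep192, Cenpj and Cep135. All 10 were found among the 22851 genes of the counts table, and all 10 passed the filter on low counts. Radial glial cells, progenitors at the ventricle wall that give rise to ependymal cells, came from the brains of C57BL/6J mice at postnatal day 0 to 3. They were kept in medium with 10% serum and then without serum for 6 days. One group of 3 libraries is wild type (WT) and the other of 3 is from Edf1 KO mice, a knockout made with CRISPR/Cas9, and the only difference the labels give between the groups is the genotype. The labels call the replicates biological and do not say whether each came from its own animal, litter or pool of brains.

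A centriole is a short barrel of microtubules, and at the base of a cilium it serves as the basal body. A dividing cell builds a single procentriole beside each existing centriole, while a cell that will carry many cilia builds many, most of them on deuterosomes, structures without a centriole of their own. Both routes draw on the same core: the kinase Plk4 is placed on a platform of Cep63, Cep152 and Cep192, phosphorylates Stil, and Stil brings in Sass6, which forms the cartwheel on which Cep135 and Cenpj help to raise the microtubule wall. Deup1, a paralog of Cep63, takes the place of Cep63 in the deuterosome and also binds Cep152.

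Total counts were 13071766 to 28087006 per library, lowest in WT replicate 2 and highest in KO replicate 3. Edf1, the targeted gene, had 82.6, 85.9 and 80.2 counts per 1000000 reads (CPM) in WT replicates 1, 2 and 3 and 9.84, 10.9 and 13.2 CPM in the KO replicates, so it followed the labels in all 6 libraries. For the labelled cell type, 24 genes of multiciliated cells were read (Foxj1 and axoneme genes such as Dnah5 and Rsph1). All 24 were above the count filter, with a summed level of 4375 to 4456 CPM in WT and 2733 to 2976 CPM in the KO. All 16 listed genes of radial glia and astrocytes (11240 to 11590 CPM in WT) and all 12 of microglia passed as well. Passing the filter thus shows that the multiciliated genes were expressed, not that other cell types were absent. CPM values use library sizes scaled by the TMM method, and a gene was called changed where edgeR's quasi-likelihood test, adjusted over all 14243 tested genes, gave a p-value under 0.05.

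Of the 10 genes, 8 were called lower in the KO, none was called higher, and 2 were not called. All 10 had a lower value. Over all tested genes 26.9% were called, 14.2% lower and 12.7% higher. Deup1 alone of the 10 was also at least 2-fold lower, as were 1.69% of all tested genes. The median log2 fold change of the 10 genes was -0.49, against 0.0029 over all tested genes. The genotypes did not overlap in 8 of the 10 genes, which were all lower in the KO. Over all tested genes 22.1% had groups apart with the KO lower, and 43.3% had groups apart in either direction. The size of the change followed the roles of the genes: both deuterosome genes and Plk4 and Stil fell most, and the 5 genes of the platform and the microtubule wall least. This order is a description of fitted values and was not itself tested. These are levels in bulk RNA, in which fewer cells of a type and less RNA per cell cannot be told apart.

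**Figure D1:**
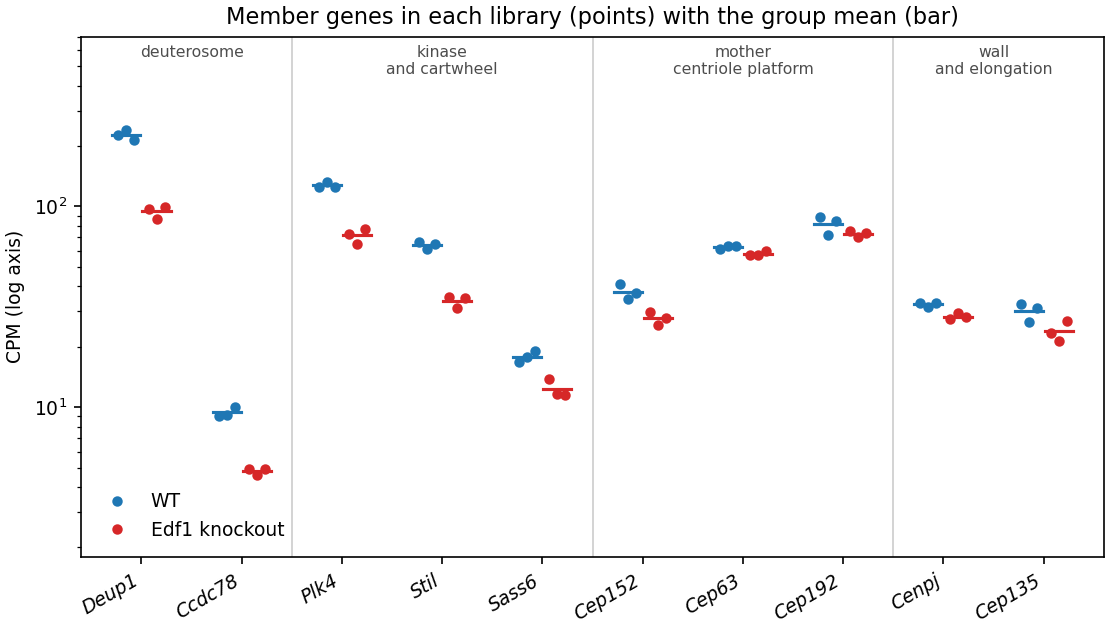
CPM of the 10 genes (log axis) in each library, with WT in blue and Edf1 KO in red; points are the 3 libraries of a genotype and bars their mean. Deup1 lies at 215 to 241 CPM in WT and at 86.7 to 99.2 CPM in the KO, while Cep192 and Cep135 have overlapping points.

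The sequences upstream of Deup1, Ccdc78, Plk4 and Stil are shown first, since these 4 genes had the largest falls of the 10. They run 5′ to 3′ on the strand of the gene, end at the RefSeq transcription start or, for Deup1, at the nearest base upstream of it that lies in no annotated exon, and come from RefSeq (GRCm38.p6). Capitals mark words searched for: E2F (GCGGGAA or GCGCGAA), MYB (CAACTG or CAACGG or TAACTG or TAACGG), the CCAAT box (CCAAT), CHR (TTTGAA or TTCGAA), forkhead (TGTTTAC) and a short RFX word (GTTGCC), each on both strands.
Deup1, chr9:15627934-15628096, minus strand: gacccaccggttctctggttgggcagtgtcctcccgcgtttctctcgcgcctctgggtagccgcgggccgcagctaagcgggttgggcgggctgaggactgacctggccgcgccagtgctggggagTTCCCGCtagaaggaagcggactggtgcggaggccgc
Ccdc78, chr17:25786330-25786579, plus strand: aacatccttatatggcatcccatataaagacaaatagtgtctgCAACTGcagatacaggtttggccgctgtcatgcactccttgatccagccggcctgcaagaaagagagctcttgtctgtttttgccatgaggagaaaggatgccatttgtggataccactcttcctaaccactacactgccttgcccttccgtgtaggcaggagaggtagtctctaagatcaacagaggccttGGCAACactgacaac
Plk4, chr3:40799701-40799950, plus strand: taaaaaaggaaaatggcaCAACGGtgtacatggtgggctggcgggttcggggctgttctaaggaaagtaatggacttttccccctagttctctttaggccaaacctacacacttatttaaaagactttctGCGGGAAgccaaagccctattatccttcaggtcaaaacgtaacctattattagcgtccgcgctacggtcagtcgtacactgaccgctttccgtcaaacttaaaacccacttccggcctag
Stil, chr4:114999868-115000117, plus strand: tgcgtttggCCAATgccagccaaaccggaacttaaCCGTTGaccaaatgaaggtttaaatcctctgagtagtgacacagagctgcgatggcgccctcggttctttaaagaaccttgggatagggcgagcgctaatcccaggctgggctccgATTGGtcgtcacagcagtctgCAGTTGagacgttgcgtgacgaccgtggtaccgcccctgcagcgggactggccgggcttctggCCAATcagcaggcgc

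In the full windows of 250 bases before and 50 after each start, an E2F word was found for 5 of the 9 genes that matched a window by symbol (Deup1, Plk4, Stil, Cep152 and Cep63), against 6.0% of all 32851 windows of the table. No window of Cep192 was used. A gene was counted if any of its windows held the word, while the shares are of single windows. The units thus differ, and a gene with more windows has more room for a word. A MYB word was found for 7 of 9 (all but Sass6 and Cenpj), against 28.3% of all windows. The short RFX word was found for Deup1 and Ccdc78, with 12.5% over all windows. A CCAAT box was found for 4 of 9 (Deup1, Stil, Cep152 and Cep135), with 37.4% over all windows, and a CHR word for 2 of 9 (Sass6 and Cep152), with 19.2%. No window of the 9 held the forkhead word, which 3.6% of all windows hold. The E2F word of Stil lies after its start and so outside the printed bases. Deup1 has a window at each of 2 starts: of its words only the E2F word is in the printed bases, while a MYB word and the RFX word lie between those bases and the start of the first window, and the CCAAT box and 2 more MYB words lie in the second window, which is not printed. Matches to such short words are a description of the letters and not evidence of binding. The words themselves overlap in none of the 4 printed sequences, and Cep63, whose level was not called changed, holds an E2F word as well.

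Deup1, which encodes the core protein of the deuterosome, fell most of the 10 genes. The gene spans chr9:15559864-15627933 on the minus strand (GRCm38), with 14 merged exon blocks. Its level was 228, 241 and 215 CPM in WT replicates 1, 2 and 3, and 97.6, 86.7 and 99.2 CPM in the KO replicates. The lowest WT library was thus well above the highest KO library, and the KO mean was 41.4% of the WT mean (228 ± 12.9 against 94.5 ± 6.76 CPM, SD, n = 3 each). The fold change was -1.27 on the log2 scale (SE 0.064; edgeR adjusted p 1.25e-07). Of all tested genes 110, or 0.772%, had a fold change at or below that of Deup1, itself included. Only 0.422% of its 31-base words occur in another annotated gene, and no exon of another gene overlaps it.

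Ccdc78, a coiled-coil protein described at deuterosomes, was the least abundant of the 10 genes in CPM. It lies at chr17:25786580-25790513 on the plus strand. It had 240, 118 and 186 raw counts in the WT replicates and 80, 82 and 139 in the KO replicates. Scaled to library size, WT replicates 1 to 3 held 9.04, 9.17 and 10.1 CPM against 4.92, 4.57 and 4.92 CPM for KO, so the genotypes were apart and the KO mean was 51.0% of WT. On the log2 scale it fell by 0.97 (SE 0.12; edgeR adjusted p 0.000103). Exons on the opposite strand (Fam173a and AC134908.4) overlap 237 of its 2118 exonic bases, and since no strand setting is given for the counting, reads from those bases cannot be assigned with certainty.

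The kinase and cartwheel genes Plk4, Stil and Sass6 were all called lower. Plk4, the kinase that starts procentriole formation, spans chr3:40800019-40816883 on the plus strand. It had 125, 133 and 125 CPM in WT and 72.6, 65.2 and 77.3 CPM in the KO. Every KO library was below every WT library, and the KO mean was 56.2% of WT. Plk4 fell by 0.83 on the log2 scale (SE 0.067; edgeR adjusted p 2.70e-06). Of the 31-base words of Plk4, 6.50% occur in another annotated gene, the highest share among the 10 genes.

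Stil, the substrate of Plk4 that recruits Sass6, spans chr4:115000159-115043196 on the plus strand. It had 66.3, 61.4 and 65.1 CPM in WT and 35.2, 31.1 and 34.9 CPM in the KO. The genotypes were apart, with spreads of 2.57 CPM in WT and 2.30 CPM in the KO (SD, n = 3 each). The KO mean was 52.5% of WT, a log2 fold change of -0.93 (SE 0.067; edgeR adjusted p 1.23e-06).

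Sass6, the structural protein of the cartwheel, changed less than its recruiter Stil. It lies at chr3:116594982-116631004 on the plus strand. Its level was 16.8, 17.8 and 19.1 CPM in WT and 13.8, 11.6 and 11.5 CPM in the KO. The genotypes were apart, by 16.8 CPM in the lowest WT library against 13.8 CPM in the highest KO library. The KO mean was 68.9% of WT, a log2 fold change of -0.54 (SE 0.10; edgeR adjusted p 0.00165). Of its 6121 exonic bases, 1891 overlap exons on the opposite strand, of Gm42893 and of Trmt13. No level is given here for Gm42893, and the part of the overlap in the change of Sass6 was not tested. Trmt13, at 8.79 CPM in WT and 9.41 in the KO, was not called (log2 fold change 0.08; edgeR adjusted p 0.713).

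Among the platform genes, Cep152 was called lower and Cep63 and Cep192 were not called. Cep152, the scaffold that holds Plk4 and a partner of both Cep63 and Deup1, lies at chr2:125563088-125625113 on the minus strand. It had 40.9, 34.7 and 37.0 CPM in WT and 29.7, 25.8 and 27.7 CPM in the KO. The genotypes were apart, and the KO mean was 73.8% of WT. Cep152 fell by 0.45 on the log2 scale (SE 0.083; edgeR adjusted p 0.00166).

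Cep63, the paralog of Deup1 that serves at existing centrioles, lies on the same chromosome as Deup1, at chr9:102584588-102626534 on the minus strand. It had 61.7, 63.4 and 63.5 CPM in WT and 57.2, 57.2 and 60.3 CPM in the KO. The KO libraries were below the WT libraries by a narrow gap, and the KO mean was 92.7% of WT. With a log2 fold change of -0.11 (SE 0.055; 95% interval -0.23 to 0.01) it missed the threshold (edgeR adjusted p 0.177). Once the trends of each library with GC content and transcript length were removed it passed, at -0.21 with an adjusted p of 0.016. Exons of Anapc13 on the opposite strand overlap 239 of the 9598 exonic bases of Cep63.

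Cep192, which recruits Plk4 and pericentriolar material, spans chr18:67800107-67885170 on the plus strand. It had 88.3, 71.8 and 84.2 CPM in WT and 75.1, 70.8 and 73.4 CPM in the KO. The genotypes overlapped through WT replicate 2, the lowest of the WT libraries for this gene and in total count. Its log2 fold change of -0.16 (SE 0.073; 95% interval -0.32 to -0.0033) was not called (edgeR adjusted p 0.123). Without WT replicate 2 it was -0.24 with an adjusted p-value of 0.00125, and with the GC and length correction it was -0.27 with 0.000542, both past the threshold.

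Both genes of the microtubule wall were called lower by small amounts. Cenpj, the tubulin-binding protein that sets centriole length, lies at chr14:56526761-56575425 on the minus strand. It had 33.0, 31.7 and 33.1 CPM in WT and 27.4, 29.4 and 28.0 CPM in the KO, so the genotypes were apart. It fell by 0.21 on the log2 scale (SE 0.069; edgeR adjusted p 0.0428), just inside the threshold. The call was lost in 5 of the 6 fits that left out one library, with adjusted p-values of 0.129 without WT replicate 1, 0.105 without WT replicate 3, and 0.145, 0.0639 and 0.134 without KO replicates 1, 2 and 3. It was lost with library size alone (0.0554), with no filter beyond 1 count (0.0577) and in DESeq2 (0.0846) too. It was also lost with the replicate number as a block (0.0603).

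Cep135, which ties the cartwheel to the microtubules, lies at chr5:76588698-76646466 on the plus strand. It had 32.6, 26.5 and 31.4 CPM in WT and 23.5, 21.5 and 26.8 CPM in the KO. The lowest WT library, replicate 2, was just below the highest KO library, replicate 3. Cep135 fell by 0.34 on the log2 scale (SE 0.10; edgeR adjusted p 0.0272). The call was lost without WT replicate 1 (-0.27, adjusted p-value 0.119), without WT replicate 3 (-0.31, 0.0677), without KO replicate 1 (-0.32, 0.0901) and without KO replicate 2 (-0.26, 0.119).

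**Figure D2:**
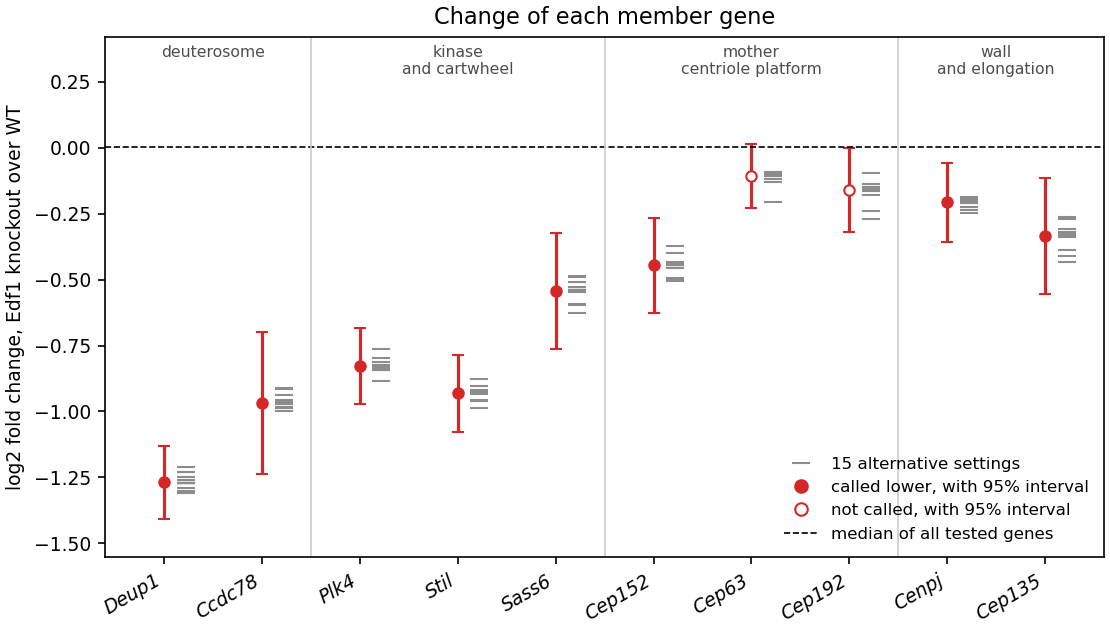
Log2 fold change (KO over WT) of the 10 genes with 95% intervals, filled where called lower and open where not called; grey ticks are the values under 15 alternative settings and the dashed line is the median of all tested genes. Deup1, Ccdc78, Plk4 and Stil lie between -1.27 and -0.83 with intervals far from the line, and the ticks of all 10 genes stay below 0.

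Levels were then compared between genes per length, as CPM per kilobase of merged exons. Deup1 was the highest of the 10 in both genotypes, at 68.9 ± 3.90 in WT and 28.5 ± 2.04 in the KO (SD, n = 3). Plk4 followed with 18.6 ± 0.64 and 10.5 ± 0.89, and Sass6 had the lowest mean with 2.92 ± 0.19 and 2.01 ± 0.22. In the KO its libraries overlapped those of Ccdc78 (2.27 ± 0.096). In WT the third place was held by Stil with 11.1 ± 0.44, above all libraries of the genes that followed. In the KO Stil stood at 5.82 ± 0.40, within the range of its neighbours Cep63 (6.07 ± 0.18), Cep192 (5.85 ± 0.17) and Cenpj (5.80 ± 0.22). In WT Cenpj, Cep63, Cep192 and Cep152 lay at 6.69 to 6.51 CPM per kilobase with overlapping neighbours.

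The places depend on the length used. Per kilobase of the longest annotated transcript, Plk4 had 36.7 in WT and 20.6 in the KO, since its merged exons span 6855 bases and its longest transcript 3479. On that scale Cep63 reached 10.7 in WT and Cep192 10.1, above Cenpj at 6.85, while Deup1 with 75.5 and Sass6 with 4.12 kept the first and the last place in WT. In the KO Deup1 stayed first with 31.3, but Ccdc78 with 2.27 was below Sass6 with 2.84.

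**Figure D3:**
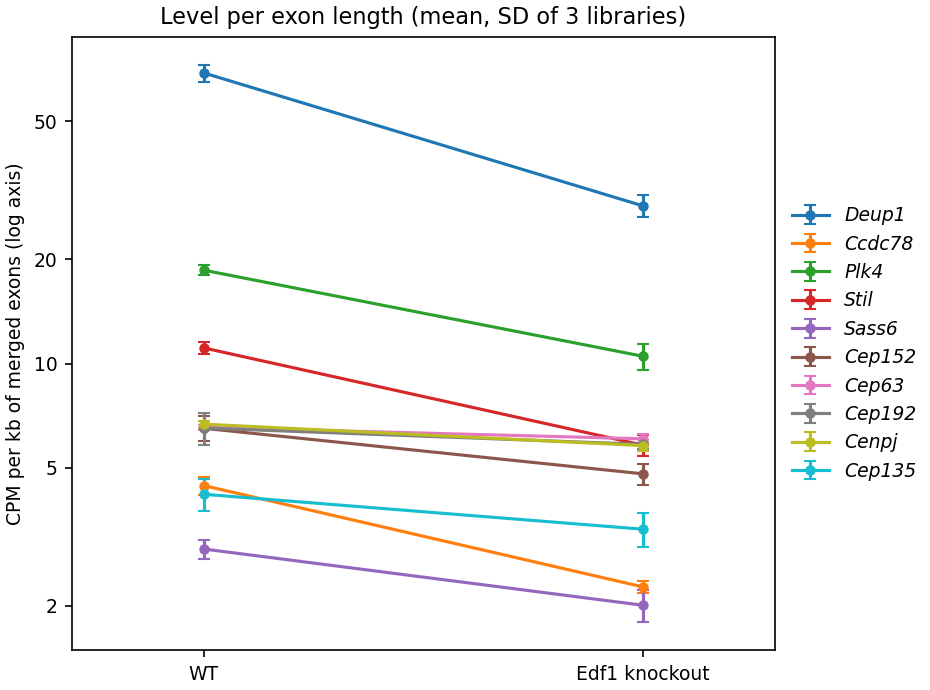
Level of each of the 10 genes in WT and Edf1 KO in CPM per kilobase of merged exons (log axis); points are means and bars the SD of 3 libraries. Deup1 stands apart at 68.9 in WT and 28.5 in the KO, and the line of Stil drops from 11.1 to 5.82, into the group of Cep63, Cep192 and Cenpj.

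The paralogs Deup1 and Cep63 were set against each other within each library. The CPM of Deup1 divided by that of Cep63 was 3.70, 3.80 and 3.39 in WT replicates 1, 2 and 3 and 1.70, 1.52 and 1.64 in the KO replicates. The KO ratios were all below the WT ratios, with a mean difference of -1.16 on the log2 scale. The exact two-sided permutation p was 0.1, the smallest that 3 libraries against 3 allow. This difference in change is thus larger than the spread between replicates (SD 0.086 and 0.087 on the log2 scale), but the design cannot reach the threshold for a single ratio.

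Deup1 was also set against the summed CPM of the 24 genes of multiciliated cells. Of these 24 genes 22 were called lower and none higher, against 14.2% lower and 12.7% higher over all tested genes. Their median log2 fold change was -0.58. Single genes among them had values around or beyond the -1.27 of Deup1, with Dnah11 at -1.74, Dnaic2 at -1.28 and Tekt4 at -1.15, all of them axoneme genes. The sum in the KO was 65.0% of WT, while Deup1 was 41.4%. The log2 ratio of Deup1 to the sum was -4.27, -4.21 and -4.35 in WT and -4.89, -4.98 and -4.91 in the KO. The ratio was lower in all 3 KO libraries, with a mean difference of -0.65 on the log2 scale (exact two-sided permutation p = 0.1, the smallest possible). Among the other 9 genes, Ccdc78, Stil and Plk4 were at 51.0%, 52.5% and 56.2% of their WT level, below the 65.0% of the marker sum. The remaining 6 ranged from 68.9% for Sass6 to 92.7% for Cep63, above it, and these differences from the sum were not tested.

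**Figure D4:**
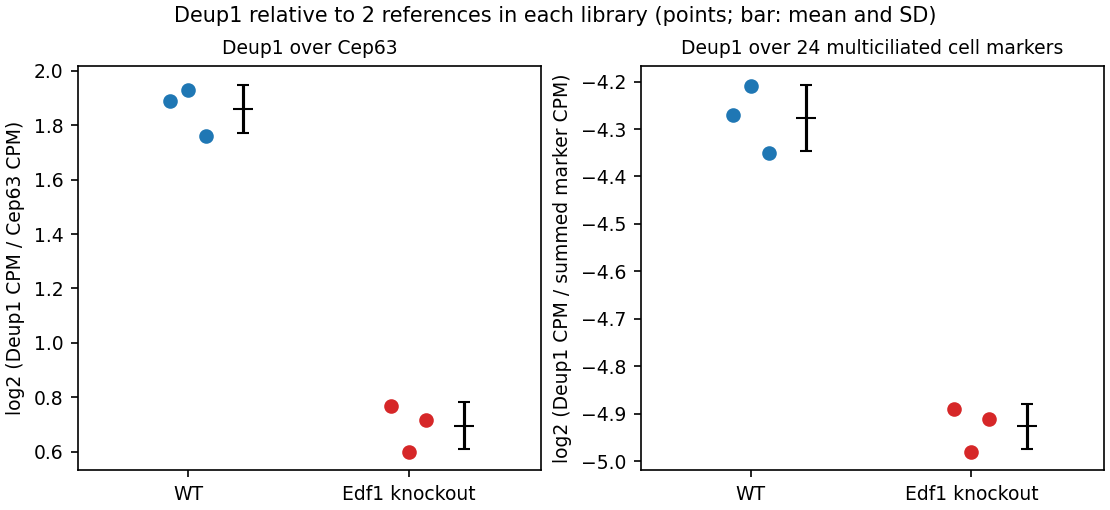
Log2 ratio of Deup1 to Cep63 (left) and of Deup1 to the summed CPM of 24 multiciliated cell genes (right) in each library, with mean and SD of 3 libraries beside the points. All KO points lie below all WT points, at 0.60 to 0.77 against 1.76 to 1.93 on the left and at -4.98 to -4.89 against -4.35 to -4.21 on the right.

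The genes whose pattern over the 6 libraries was closest to that of Deup1 were Dpy19l2, Lrrc43, Lrrc23, Dnaic2 and Ly86. Likeness was the Euclidean distance between log2 CPM values centred on the mean of each gene, over 12888 genes with a mean log2 CPM of at least 1. Lrrc23, a radial spoke protein, went from 408 ± 40.4 to 172 ± 9.86 CPM, and Dnaic2, an intermediate chain of outer dynein arms, from 115 ± 3.93 to 47.6 ± 0.45 CPM (SD, n = 3 each). Ly86, a gene of myeloid cells, went from 57.2 ± 3.30 to 25.8 ± 2.18 CPM. Their distances were 0.105 for Dpy19l2 to 0.159 for Ly86. The log2 fold changes of these genes were -1.30 to -1.14, around the -1.27 of Deup1. With 3 libraries in each genotype, most of such a distance is the difference in fold change from Deup1. The distances and places thus largely restate the fold changes and are not a separate result. Among the other 9 assembly genes the nearest were Ccdc78, at place 126 with a distance of 0.448, Stil at place 134 and Plk4 at place 183. Cep63 was farthest, at place 3460 with a distance of 1.43.

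Among other genes of centriole assembly, 21 of 37 tested were called lower, 1 higher and 15 not called. Over all tested genes 14.2% were called lower and 12.7% higher. The median log2 fold change of the 37 was -0.29, against 0.0029 over all tested genes. The largest changes were in Mdm1, a microtubule-binding protein of centrioles, which had 102, 102 and 101 CPM in WT and 52.3, 53.4 and 54.0 CPM in the KO (log2 fold change -0.93, SE 0.053). Poc1a followed at -0.87, Cep76 at -0.78, Poc5 at -0.75 and Wdr90 at -0.69, with adjusted p-values of at most 7.81e-05 by edgeR. Poc1a, Poc5 and Wdr90 are proteins of the centriole wall and lumen, and Cep76 restrains centriole duplication. The single gene called higher was Sfi1, which binds centrins (0.23, adjusted p-value 0.041 by edgeR).

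Genes of deuterosome release and of the mitotic oscillator that multiciliated cells use without dividing were split. Of 15 tested, 10 were called lower and 4 higher, with a median log2 fold change of -0.32. The shares over all tested genes were 14.2% lower and 12.7% higher. Lower were Ccno, a cyclin needed for deuterosome formation (96.5 ± 15.6 to 40.2 ± 1.1 CPM, log2 fold change -1.25), Ccna1 (84.1 ± 7.16 to 35.4 ± 0.86 CPM, -1.24), and Cdc20b, a deuterosome protein that acts in centriole release (41.4 ± 4.94 to 19.5 ± 0.92 CPM, -1.09; SD, n = 3 throughout). Fbxo43, an inhibitor of the anaphase-promoting complex, had 7.53, 6.60 and 7.51 CPM in WT and 4.12, 2.56 and 2.62 CPM in the KO (-1.26). Higher were Cdk2 (21.5 ± 1.05 to 36.3 ± 1.33 CPM, 0.76), Fbxo5 (0.69), the inhibitor of cell cycle kinases Cdkn1a (0.54) and Espl1, which encodes separase (0.49). The adjusted p-values of these 8 genes were at most 0.00358 by edgeR.

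Since Plk4, Stil, Sass6 and their partners also serve in dividing cells, 2 lists of proliferation genes were read from the same fit. They stand against 14.2% of all tested genes called lower and 12.7% called higher. In the G1/S list 8 of 20 genes were called higher and none lower, with a median log2 fold change of 0.17. Cdc6 (0.78), Ccne2 (0.62) and Rrm2 (0.54) had the largest changes. In the G2/M list 7 of 24 were called higher and 7 lower, with a median of 0.14. Of those called lower, Cdc20, Cdk1, Ccnb1 and Plk1 also belong to the oscillator list above and were counted there too. Mki67, a marker of cycling cells, had 57.5, 43.9 and 61.2 CPM in WT and 112, 94.1 and 114 CPM in the KO (log2 fold change 0.97, SE 0.11; edgeR adjusted p 3.12e-05). Ccna2 (0.68), Birc5 (0.65), Kif23 (0.52), Aurkb (0.505), Nusap1 (0.44) and Hmmr (0.37) were called higher as well. Called lower were Nek2 (-0.85), Aurka (-0.58), Cdc20 (-0.52), Cdk1 (-0.47), Ccnb1 (-0.32), Plk1 (-0.26) and Top2a (-0.22). With library size alone as the scaling, 9 G2/M genes were called higher and 7 lower, and the G1/S list had the same count of 8. The summed CPM of the G2/M list overlapped between the genotypes (1081 to 1126 in WT, 1045 to 1131 in the KO).

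Regulators of the multiciliated fate were called lower in 7 of 11 tested genes and higher in none, with a median of -0.24. The shares over all tested genes were 14.2% lower and 12.7% higher. Foxj1, called lower, is also one of the 24 genes of multiciliated cells. Foxn4 (14.8 ± 0.92 to 5.90 ± 0.73 CPM, log2 fold change -1.31), Mcidas, the coactivator that turns on the programme with E2F factors (-1.13), and Myb (179 ± 4.99 to 81.6 ± 4.76 CPM, -1.13; SD, n = 3) changed most. Of the E2F genes in the list and their partner Tfdp1, E2f4 was called lower (-0.21, edgeR adjusted p 0.0364), and E2f5 (0.04) and Tfdp1 (0.04) were not called, with adjusted p-values of 0.660 and 0.653.

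Marker genes of other cell types were read from the same fit, against the 14.2% of all tested genes called lower and 12.7% called higher. Of 12 microglia genes 10 were called lower and none higher, P2ry12 (-1.35), Csf1r (-0.76) and Cx3cr1 (-0.76) most, and their summed level was 2087 to 2222 CPM in WT and 1411 to 1454 CPM in the KO. Of 12 listed genes of fibroblast, mural and endothelial cells, 9 were tested, all of fibroblast or mural cells, while Pecam1 and Cdh5 of endothelial cells were below the count filter. Of the 9, 8 were called higher and none lower, Dcn (1.25), Col3a1 (1.10) and Col1a1 (1.01) most, and the sum over the list was 853 to 914 CPM in WT and 1057 to 1176 CPM in the KO. Of 16 radial glia and astrocyte genes 4 were called higher and 2 lower, with sums of 11240 to 11590 CPM in WT and 12250 to 12750 CPM in the KO. Aldh1l1 (0.49) and Tnc (0.45) were higher and S100b (-0.65) lower.

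Of 6 tested choroid plexus genes, 2 were called higher, Trpm3 (2.52) and Otx2 (0.68), and 4 were not called. Of the 6, 3 had a lower value in the KO, and the median log2 fold change was 0.026. The sum over the list was 113 to 139 CPM in WT and 156 to 178 CPM in the KO. Trpm3 went from a mean of 5.97 to 34.6 CPM and Otx2 from 16.5 to 26.5 CPM, so the sum mainly reflects these 2 genes. Of 8 tested neuronal genes 2 were called lower, Dcx (-1.61, at a mean log2 CPM under 1) and Tubb3 (-0.81). Of 7 tested oligodendrocyte genes 1 was higher (Cspg4, 0.38) and 1 lower (Cnp, -0.25). No gene of the microglia list was at or under 3 counts in every library. The part of these cell types in the changes of the 10 assembly genes was not tested.

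**Figure D5:**
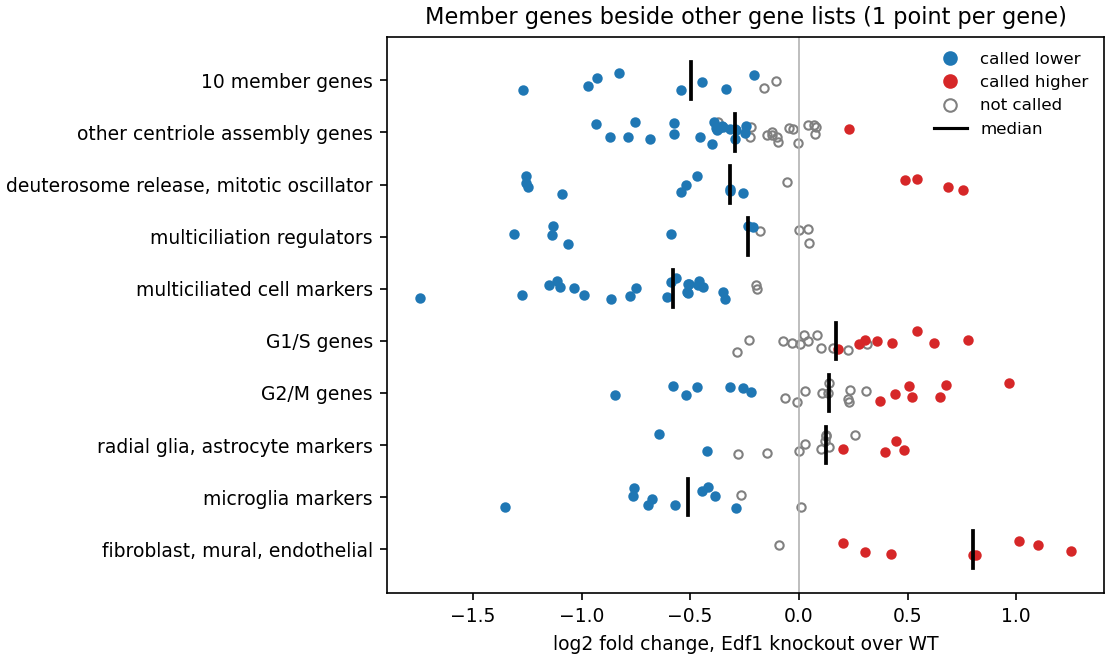
Log2 fold change (KO over WT) of each tested gene in the 10 assembly genes and 9 other lists; blue is called lower, red called higher, open not called, and the black bar is the median of a list. The assembly genes spread from -1.27 to -0.11 with a median of -0.49, beside -0.58 for the multiciliated cell genes, 0.17 for G1/S and 0.14 for G2/M genes.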

How the data were processed

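RNA of 6 cultures was extracted with TRIzol and made into libraries from mRNA with the MGIEasy chemistry, as the labels' protocols state. The submitters' processing notes name FastQC 0.11.2, cutadapt, HISAT2 2.1.0 and GRCm38. The counting program, annotation, strand setting and treatment of reads with several matches are not given in the sources used here. The authors deposited raw read counts, whole numbers for 22851 gene symbols, in which each library has its own column. There were 0 rows naming no gene and 0 unused sample columns.

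The counts were analysed in R 4.3.3. filterByExpr of edgeR 4.0.16 left 14243 genes, TMM factors were 0.985 to 1.01, and edgeR's quasi-likelihood test compared KO with WT on all 6 libraries with no covariate and Benjamini-Hochberg adjustment over all tested genes. Standard errors were obtained by dividing each log2 fold change by the root of its F statistic. log2 CPM used a prior count of 2. The edgeR p-values test the difference between genotypes against the spread between the 3 libraries of a genotype, which edgeR moderates over all tested genes. Gene positions, exon lengths, GC content and shared 31-base words came from GENCODE M21 (GRCm38), by symbol or RefSeq synonym for 22120 genes. Alternatives were DESeq2 1.42.0, limma 3.58.1 (voom), other scalings, filters and thresholds, a GC and length correction with splines of 4 degrees of freedom, the replicate block, and each library left out. In simulated counts for 14156 genes with 200 changed 2-fold, the KO against WT test recovered 93.5% and 8.78% of its calls were false. In the data 26.9% of tested genes were called, and of the 10 genes all but Deup1 changed less than 2-fold. The simulated rates therefore do not carry over to the calls reported here.

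The 10 genes and the lists were chosen with earlier results of these data known. Genes named singly are Edf1, the 10 genes, per list the largest called changes (up to 5 in the centriole assembly and deuterosome release lists, up to 3 in the others) with a mean log2 CPM of at least 1, and the 5 genes nearest Deup1. Trmt13, Sfi1, Fbxo5, Cdkn1a, Espl1, Aurka, Cdc20, Cdk1, E2f4, E2f5 and Tfdp1 fall outside that rule and were picked after their values were seen. Birc5, Kif23, Aurkb, Nusap1, Hmmr, Ccnb1, Plk1 and Top2a fall outside it too and were added so that all called G2/M genes are named. Dcx, also outside it, was added so that all called neuronal genes are named.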

Additional observations from a re-analysis of the deposited data

How the results depend on the processing

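The count of 8 lower genes stayed within 7 to 10 under the other scalings, filters and tests, and was 6 at an adjusted p-value under 0.01 and 6 to 9 over the fits that left out one library. Deup1, Ccdc78, Plk4, Stil, Sass6 and Cep152 kept direction and call in all 15 alternatives each, Deup1 between -1.31 and -1.21 and Cep152 between -0.50 and -0.37. Cep63, Cep192, Cenpj and Cep135 kept direction in all 15, and their calls changed as stated above. The GC and length correction called all 10, but it also called more genes over the whole table, 4466 against 3833 in the reported fit. The count over all genes was 3833 and 2213 at an adjusted p-value under 0.01, by construction of the stricter threshold, and 2658 to 4340 with one library left out. The differences in both Deup1 ratios kept their direction with one library left out and with 0.5 counts added.

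With the replicate block, 7 of the 10 genes and 4065 genes in all were called, of which 3683 are shared with the reported fit. Permuting genotype within numbers left the differences in both Deup1 ratios at -1.16 and -0.65. The exact two-sided permutation p was 0.25, the smallest that this permutation allows, so it does not measure weaker support. Same-numbered libraries hardly deviated together, with correlations of 0.0693, 0.0604 and 0.0372, so the numbers were not taken as pairs. Counts were 80 to 240 per library for Ccdc78 and 209 or more for the other 9 genes, so depth limits Ccdc78 most.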
